A study of Mus musculus with 8 samples.

Results

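The purinergic genes described here are 9 genes of the right cerebral cortex of mice, taken from a named list of receptors for extracellular nucleotides and adenosine and of the enzymes that convert one into the other: P2ry1, P2ry6, P2rx4, P2rx7, Entpd1, Nt5e, Adora1, Adora2a and Adora3. All 9 were found among the 54752 genes of the count tables. RNA-seq was performed on 8 C57BL/6 wild-type male mice of 14 weeks (C57BL/6 J in the study's methods), 4 of the Sham group and 4 of the BCAS group, with 1 mouse per library. The cortex was taken 3 weeks after the operation. In bilateral carotid artery stenosis (BCAS), microcoils are placed round both common carotid arteries so that cerebral blood flow falls, with the narrower coil on the right, and the Sham mice had the operation without coils. The microcoil model lowers flow to all of the forebrain, and the tissue is bulk cortex, in which more cells of a type and more RNA per cell cannot be told apart.

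Cells release ATP, ADP, UTP and UDP through channels, vesicles or damaged membranes, and these nucleotides act on P2 receptors: P2Y receptors couple to G proteins, whereas P2X receptors are cation channels opened by ATP. Ectonucleotidases on the cell surface then shorten the signal, with CD39 (Entpd1) removing phosphates from ATP and ADP to give AMP, and CD73 (Nt5e) turning AMP into adenosine. Adenosine acts on its own G-protein-coupled receptors, of which the inhibitory one encoded by Adora1 is abundant in cortical neurons and the stimulatory one encoded by Adora2a in the striatum. In the brain, microglia are known for using P2Y and P2X receptors to sense injured neighbours.

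After BCAS, 7 of the 9 genes rose, Adora1 fell and Nt5e did not pass the test. P2ry6 rose 9.48-fold, Adora3 6.70-fold, Entpd1 3.76-fold, P2rx7 3.56-fold, P2rx4 2.90-fold, P2ry1 2.49-fold and Adora2a 1.99-fold. A gene was called at an adjusted p under 0.05 (edgeR quasi-likelihood, Benjamini-Hochberg over the 17136 genes that passed the filter on low counts). This cortex changed widely, so these counts stand against a high background: 32% of all tested genes were called in either direction, 19.2% as higher and 12.8% as lower. Of the 9 genes, 6 also rose by more than 1 on the log2 scale, as did 11% of all tested genes, and none fell by more than 1, as 1.28% of all tested genes did. The median log2 fold change was 1.54 over the 9 genes and -0.01 over all tested genes. The groups did not overlap for 5 of the 9 genes, P2ry6, P2rx7, Entpd1 and Adora3 higher and Adora1 lower, and for 34.8% of all tested genes, 18.5% with all BCAS mice higher and 16.3% with all lower. All 9 genes passed the filter, which asks for 0.558 counts per 1000000 counts of a library in at least 4 libraries. Levels below are in CPM, the same unit after TMM scaling. Adora3 reached that level in 3 Sham and 4 BCAS libraries, so its Sham libraries alone would not have kept it. The count of genes that rose was between 4 and 8 when 1 mouse was left out, and was 4 without BCAS 3, Sham 1, Sham 3 or Sham 4. The share of all tested genes called in either direction moved too, between 14.5% without Sham 1 and 46.5% without BCAS 2.

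**Figure D1:**
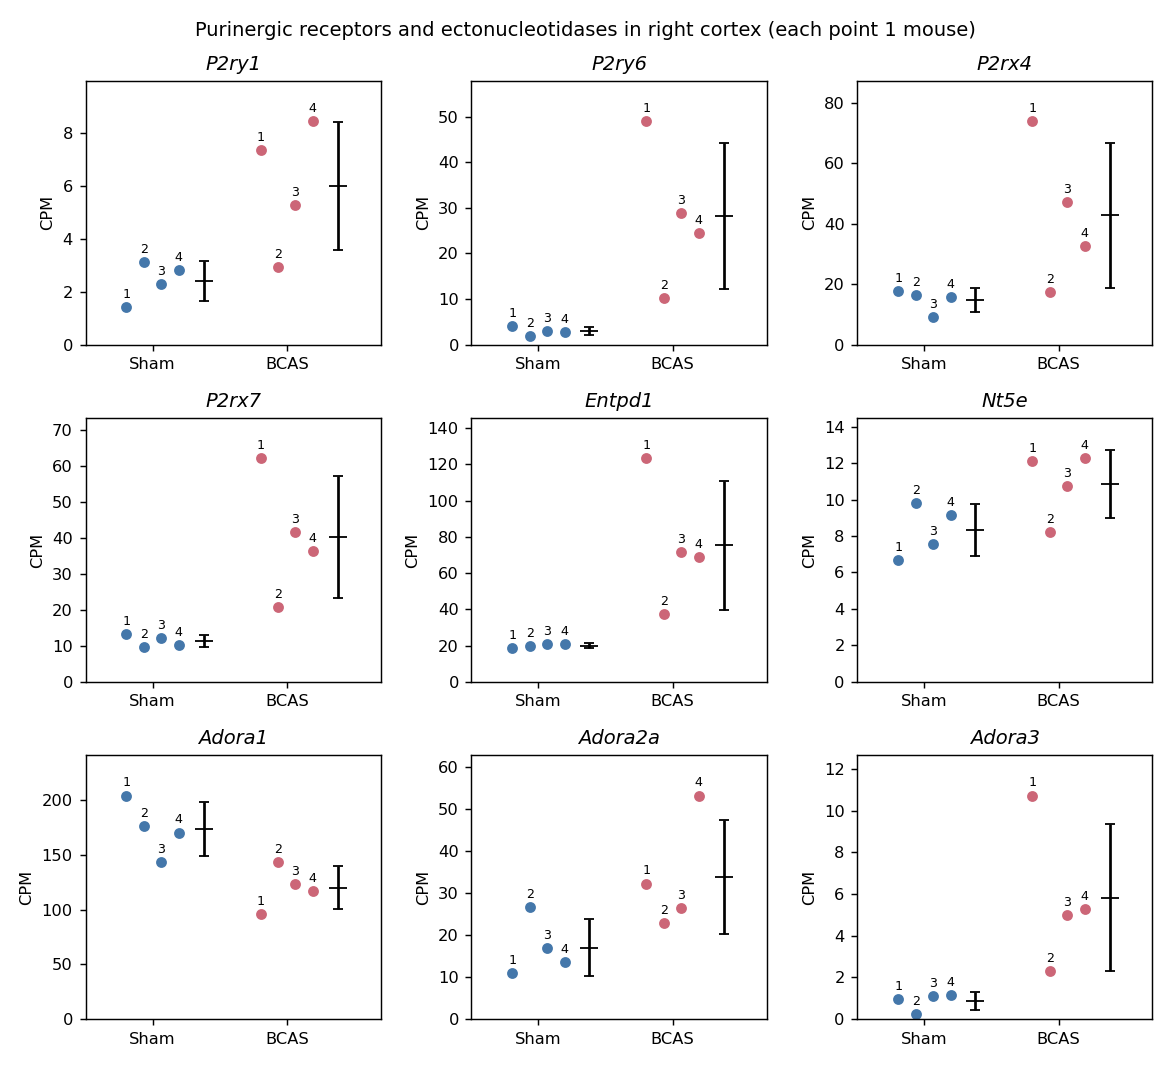
Expression of the 9 genes in each mouse, in TMM-normalized CPM on a linear axis that starts at 0, with mouse numbers at the points and the mean ± SD of each group (n = 4) beside them. BCAS 2 is the lowest BCAS mouse in all 7 genes that rose, BCAS 1 is the highest in 5 of them, and the groups overlap for P2ry1, P2rx4, Nt5e and Adora2a.

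The libraries held 16759364 to 21794435 counts, so that 3 counts, the limit that a count of 0 allows, were 0.179 per 1000000 counts of the smallest, before TMM scaling. TMM factors, which scale each library for its composition, ranged from 0.949 to 1.05. Markers of several cell types moved with the groups. All 12 microglial markers rose (median log2 fold change 2.79), with a summed level of 399.5 to 469.2 CPM in Sham and 1610 to 5957 CPM in BCAS mice, and none was at 0. Relative to the Sham mean, the microglial markers were 3.62, 1.78, 2.58 and 2.69 higher on the log2 scale in BCAS 1 to 4. Of 9 pan-neuronal markers 7 fell (median -0.71, summed level 8327 to 9802 CPM against 3493 to 7087 CPM), and of 6 markers of cortical excitatory neurons, which show the tissue to be cortex, 4 fell (1954 to 2215 against 627 to 1679 CPM). Of 8 astrocyte markers 5 rose, with a summed level of 5257 to 6107 CPM in Sham and 6908 to 9894 CPM in BCAS mice. The markers of monocytes, neutrophils and border macrophages summed to 17.2 to 21.6 CPM in Sham and 32.6 to 157.0 CPM in BCAS mice, and 5 of the 7 tested rose, though fewer than 4 Sham libraries reached the filter's level for 2 of these, Ccr2 and Ly6c2. Of 9 markers of mural cells and meningeal fibroblasts 6 rose, with a summed level of 270.0 to 311.3 CPM in Sham and 339.9 to 1014 CPM in BCAS mice. The 6 lymphocyte markers summed to 0.455 to 0.998 CPM in Sham and 2.16 to 37.1 CPM in BCAS mice, and only Cd8a was tested, which its BCAS libraries alone brought past the filter (0 to 3 counts in Sham mice). Sham 3 stood apart in choroid plexus markers, at 772.6 CPM, and among striatal markers none passed, with Sham 2 and BCAS 4 the highest mice. For the genes below, the part that a change in cell types plays was not tested.

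P2ry1 (ENSMUSG00000027765.6) lies on chromosome 3 at 61002795 to 61008982 on the plus strand. All coordinates of genes are those of GENCODE M20 on mm10, and counts are read pairs on exons. P2ry1 encodes an ADP receptor of astrocytes, neurons and platelets. It had 1.42, 3.12, 2.29 and 2.84 CPM in Sham 1 to 4 and 7.34, 2.94, 5.29 and 8.45 CPM in BCAS 1 to 4, from counts of 25 to 50 and 57 to 167. BCAS 4 and BCAS 1 were high, while BCAS 2 lay below Sham 2, so the groups overlapped. The mean rose from 2.42 ± 0.748 to 6.00 ± 2.43 CPM (SD, n = 4), a log2 fold change of 1.31 (SE 0.36, edgeR adjusted p = 0.0260). This call was lost, with an adjusted p of 0.052 to 0.071, without any 1 of BCAS 3, BCAS 4, Sham 1, Sham 3 and Sham 4. The opposite-strand gene Gm37035 covers 23.1% of its exon bases. The count was made without strand, so reads there could be assigned to neither gene. Gm37035 had at most 7 counts of its own in any mouse.

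P2ry6 (ENSMUSG00000048779.5, chromosome 7 at 100937630 to 100974649, minus strand) encodes a UDP receptor known for driving phagocytosis by microglia. It had 4.15, 1.997, 2.92 and 2.78 CPM in Sham 1 to 4 and 49.0, 10.3, 28.8 and 24.5 CPM in BCAS 1 to 4, from counts of 32 to 73 and 200 to 1115. Every BCAS mouse was above every Sham mouse, and BCAS 1 was 4.76 times as high as BCAS 2. The mean rose from 2.96 ± 0.890 to 28.2 ± 16.0 CPM (SD, n = 4), a log2 fold change of 3.24 (SE 0.45, edgeR adjusted p = 0.00271), the greatest of the 9 genes. Its exons are shared with no other gene.

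The change of the UDP receptor was greater than that of the ADP receptor. The log2 ratio of P2ry6 to P2ry1 was 1.48, -0.62, 0.34 and -0.03 in Sham 1 to 4 and 2.72, 1.77, 2.42 and 1.53 in BCAS 1 to 4. The mean ratio was higher in BCAS by 1.82 (SE 0.52), with an exact two-sided permutation p of 0.0286, the smallest that the 70 arrangements of 4 against 4 mice can give, and 0.041 after adjustment over the 10 ratios computed. The groups hardly separated, as Sham 1 at 1.48 was just below BCAS 4 at 1.53. Like the other 6 ratios that passed, this one missed the threshold without BCAS 1, BCAS 2, BCAS 4 or Sham 1. It also missed it without BCAS 3, and the adjusted p was 0.057 to 0.082 in the exact test in these cases. With so few arrangements the adjusted p depends also on how many of the other ratios reach the smallest p. A miss therefore does not by itself show that a ratio rests on 1 mouse.

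P2rx4 and P2rx7 encode ATP-gated channels, the former of endosomes and the cell surface, the latter known for opening at high ATP and for activating the NLRP3 inflammasome in microglia. They are neighbours on the plus strand of chromosome 5, with P2rx7 (ENSMUSG00000029468.17) at 122643911 to 122691432, P2rx4 (ENSMUSG00000029470.15) at 122707544 to 122729738 and 16111 bases between them. P2rx7 had 13.3, 9.55, 12.2 and 10.2 CPM in Sham 1 to 4 and 62.0, 20.8, 41.7 and 36.4 CPM in BCAS 1 to 4, from counts of 153 to 234 and 404 to 1411. All BCAS mice were above all Sham mice. Its mean rose from 11.3 ± 1.74 to 40.2 ± 17.0 CPM (SD, n = 4), a log2 fold change of 1.83 (SE 0.29, edgeR adjusted p = 0.00410).

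P2rx4 had 17.8, 16.3, 9.15 and 15.9 CPM in Sham 1 to 4 and 74.0, 17.4, 47.2 and 32.8 CPM in BCAS 1 to 4, from counts of 160 to 313 and 337 to 1683. BCAS 2 lay within the Sham range, just below Sham 1, and the other BCAS mice were above it. The mean rose from 14.8 ± 3.85 to 42.8 ± 24.1 CPM (SD, n = 4), a log2 fold change of 1.54 (SE 0.40, edgeR adjusted p = 0.0222). The call was lost without BCAS 3 or any 1 of the 4 Sham mice, at adjusted p of 0.053 to 0.058. The log2 ratio of P2rx7 to P2rx4 was higher in BCAS by 0.35 (SE 0.29, exact permutation p = 0.286, adjusted 0.317), so a difference in response between these neighbours was not shown. It was 0.60 without Sham 3, the Sham mouse with the least P2rx4, and its adjusted p was then 0.041 in the exact test.

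Entpd1 and Nt5e, which act in sequence, differed. Entpd1 (ENSMUSG00000048120.16, chromosome 19 at 40612366 to 40741602, plus strand) had 18.5, 19.9, 21.0 and 20.7 CPM in Sham 1 to 4, from counts of 319 to 367, the tightest of the 9 genes within Sham. In BCAS 1 to 4 it had 123.3, 37.6, 71.7 and 68.7 CPM, from 730 to 2804 counts, and every one of these mice was above all Sham mice. The mean rose from 20.02 ± 1.13 to 75.3 ± 35.5 CPM (SD, n = 4), a log2 fold change of 1.91 (SE 0.30, edgeR adjusted p = 0.00383).

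Nt5e (ENSMUSG00000032420.8, chromosome 9 at 88327197 to 88372092, plus strand) had 6.71, 9.80, 7.55 and 9.17 CPM in Sham 1 to 4 and 12.1, 8.24, 10.7 and 12.3 CPM in BCAS 1 to 4, from counts of 118 to 157 and 160 to 276. BCAS 2 lay inside the Sham range and the other BCAS mice above it. The means were 8.31 ± 1.43 and 10.8 ± 1.87 CPM (SD, n = 4), with a log2 fold change of 0.39 (SE 0.18, edgeR adjusted p = 0.121). Without BCAS 2 the log2 fold change was 0.51 and passed (adjusted p = 0.028).

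The log2 ratio of Entpd1 to Nt5e was 1.45, 1.01, 1.46 and 1.16 in Sham 1 to 4 and 3.33, 2.18, 2.73 and 2.48 in BCAS 1 to 4. Every BCAS mouse thus had relatively more transcript of the first enzyme, and the difference was 1.41 (SE 0.27, exact permutation p = 0.0286, adjusted 0.041).

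Among the adenosine receptors, Adora1 fell while Adora2a and Adora3 rose. Adora1 (ENSMUSG00000042429.8, chromosome 1 at 134199223 to 134235431, minus strand), the inhibitory receptor, had 204.5, 176.8, 143.97 and 170.7 CPM in Sham 1 to 4 and 95.9, 143.865, 123.6 and 117.0 CPM in BCAS 1 to 4, from counts of 2517 to 3599 and 2147 to 2793. The groups did not overlap, but BCAS 2 and Sham 3 were all but equal. The mean fell from 174 ± 24.9 to 120.1 ± 19.8 CPM (SD, n = 4), a log2 fold change of -0.54 (SE 0.14, edgeR adjusted p = 0.0241), and the call was lost without any 1 of BCAS 3, BCAS 4, Sham 1, Sham 2 and Sham 4 (adjusted p 0.057 to 0.072). Pan-neuronal and excitatory markers had median log2 fold changes of -0.71 and -0.88 in the same libraries, and Adora1 was lowest in BCAS 1 and highest in BCAS 2, as was Slc17a7, the vesicular glutamate transporter of cortical neurons, at 484.7 and 1315 CPM. Mybph, on the opposite strand, covers 20.1% of the exon bases of Adora1, so reads there could be assigned to neither gene. Mybph had at most 22 counts of its own in any mouse.

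Adora2a (ENSMUSG00000020178.6, chromosome 10 at 75316877 to 75334784, plus strand) had 11.0, 26.6, 16.9 and 13.5 CPM in Sham 1 to 4 and 32.3, 22.9, 26.5 and 53.2 CPM in BCAS 1 to 4, from counts of 193 to 426 and 444 to 977. Sham 2 was above BCAS 2 and BCAS 3, so the groups overlapped, and BCAS 4 was the highest mouse. The mean rose from 17.0 ± 6.84 to 33.7 ± 13.6 CPM (SD, n = 4), a log2 fold change of 0.99 (SE 0.33, edgeR adjusted p = 0.0460). This was the weakest of the calls: it was lost without any 1 of BCAS 1, BCAS 3, BCAS 4, Sham 1, Sham 3 and Sham 4, at adjusted p of 0.056 to 0.117, and the log2 fold change was 0.68 without BCAS 4.

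Sham 2 and BCAS 4, the mice with the most Adora2a in their groups, also had the most transcript of 10 markers of striatal projection neurons, whose tissue lies under the cortex. These markers, Penk among them, summed to 387.6, 702.6, 489.6 and 435.2 CPM in Sham 1 to 4 and 567.4, 537.6, 520.5 and 1109 CPM in BCAS 1 to 4. None of the 10 passed the test, and their median log2 fold change was 0.54. The markers differed in it, with 0.54 for Drd1 and 0.92 for Drd2 (SE 0.34, edgeR adjusted p = 0.065). Relative to the Sham mean, Drd2 was 0.99, 0.43, 0.48 and 1.68 higher on the log2 scale in BCAS 1 to 4. Adora2a was 1.00, 0.51, 0.72 and 1.72 higher. Relative to the mean of the striatal markers, Adora2a had a log2 ratio of -0.61, -0.60, -0.62 and -0.74 in Sham 1 to 4 and -0.15, -0.47, -0.09 and -0.40 in BCAS 1 to 4. The ratio was steady within Sham, at -0.64 ± 0.067 (SD, n = 4), and was higher in every BCAS mouse, at -0.28 ± 0.185 (SD, n = 4). This ratio was described after the values were seen and was not tested. It is taken to the mean of all 10 markers and does not show that Adora2a rose beyond each of them.

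**Figure D2:**
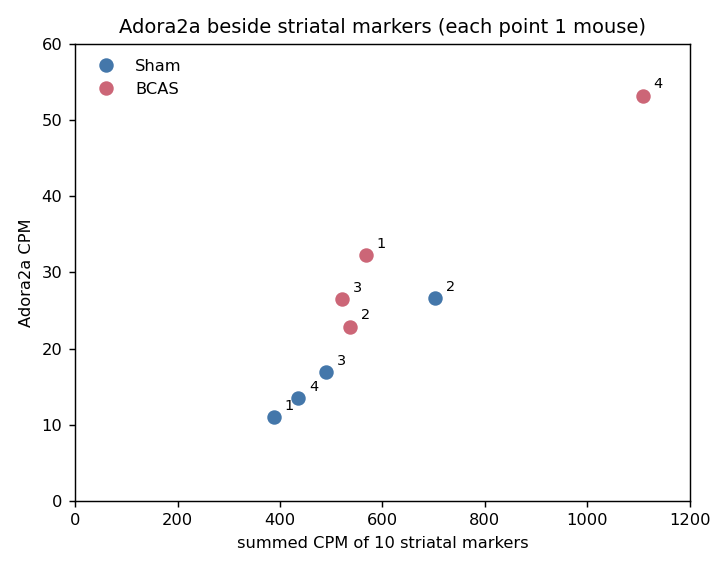
Adora2a in CPM against the summed CPM of 10 markers of striatal projection neurons, 1 point per mouse with its number. BCAS 4 is the highest mouse on both axes, Sham 2 is the highest Sham mouse on both, and at like striatal levels near 500 CPM BCAS 2 and BCAS 3 lie above Sham 3.

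Adora3 (ENSMUSG00000000562.5, chromosome 3 at 105870858 to 105908926, plus strand), a receptor that in mouse brain is known as a microglial transcript, was the scarcest of the 9 genes in Sham cortex. It had 17, 4, 19 and 19 counts in Sham 1 to 4 and 244, 45, 92 and 97 counts in BCAS 1 to 4, which are 0.97, 0.25, 1.09 and 1.15 CPM and 10.7, 2.32, 4.97 and 5.29 CPM. All BCAS mice were above all Sham mice. The mean rose from 0.862 ± 0.415 to 5.82 ± 3.53 CPM (SD, n = 4), a log2 fold change of 2.74 (SE 0.54, edgeR adjusted p = 0.00839). The same-strand gene Tmigd3 shares 20.9% of its exon bases, so reads there could be assigned to neither gene, and Tmigd3 had at most 14 counts in any mouse.

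The other adenosine receptors were set against Adora1. The log2 ratio of Adora3 to Adora1 was -7.57, -8.95, -6.91 and -7.09 in Sham 1 to 4 and -3.15, -5.89, -4.61 and -4.44 in BCAS 1 to 4, a difference of 3.11 (SE 0.73). The ratio of Adora2a to Adora1 was higher by 1.53 (SE 0.47) and its groups lay close, the highest Sham mouse at -2.73 and the lowest BCAS mouse at -2.65. For both ratios the exact permutation p was 0.0286 (adjusted 0.041). The first missed the threshold without BCAS 1, BCAS 2, BCAS 4, Sham 1 or Sham 2, and the second without any 1 mouse other than BCAS 3, both at adjusted p of 0.057 to 0.082 in the exact test.

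**Figure D3:**
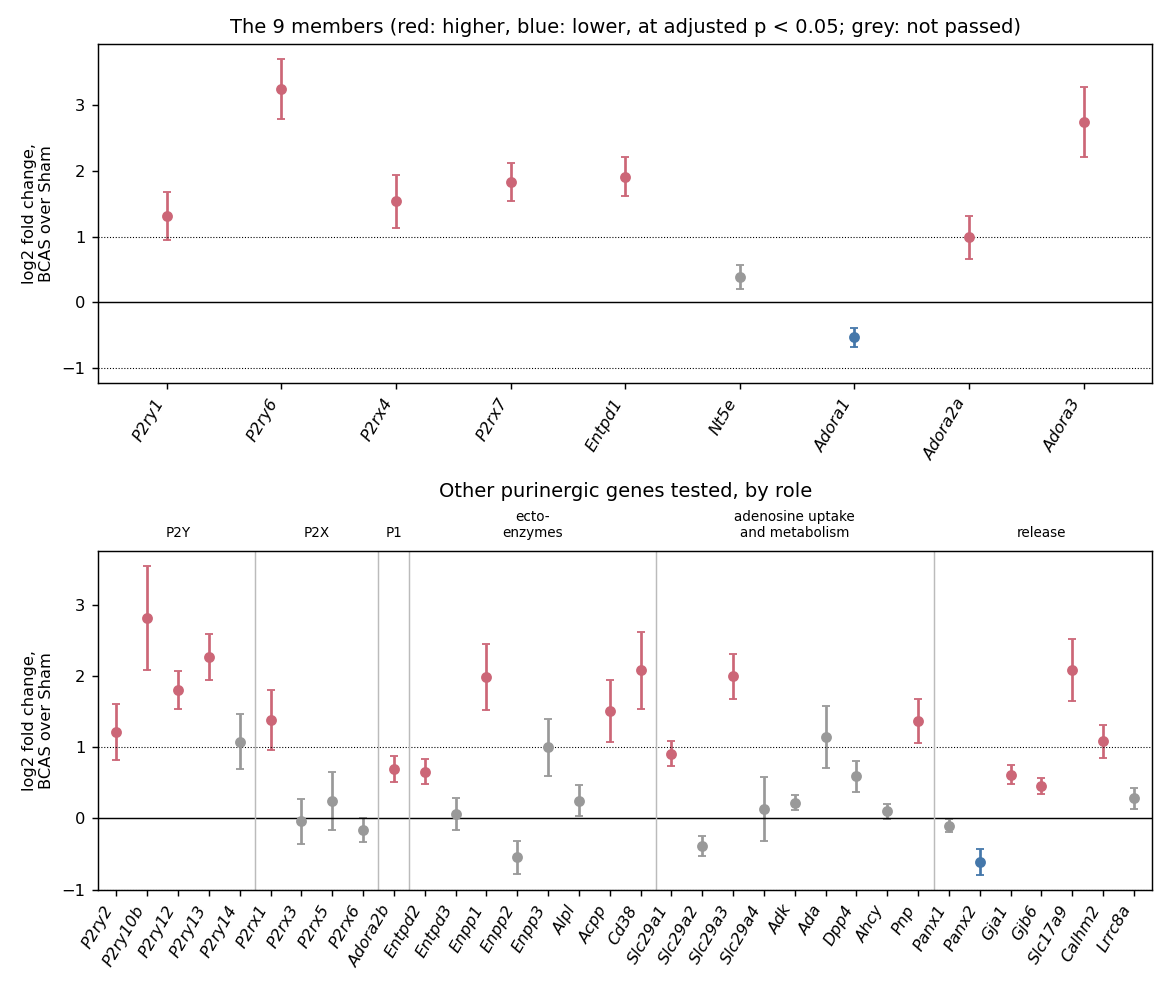
Log2 fold change of BCAS over Sham with its standard error for the 9 genes (top) and the 34 tested genes of the wider purinergic system by role (bottom), red where higher and blue where lower at an adjusted p under 0.05 in edgeR's test, grey where not passed; dotted lines mark 1 and -1. P2ry6 is the highest of the 9 at 3.24, Adora1 the only lower one at -0.54, and Panx2, at -0.61, the only gene of the wider system called lower.

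Levels of different genes were compared as CPM per kilobase of exon. The exon length includes bases shared with other genes, so values of genes such as P2ry1, Adora1 and Adora3 may be too low. In Sham cortex Adora1 was by far the highest at 30.1 (range 24.9 to 35.4), followed by Adora2a at 5.55 (3.58 to 8.68), Entpd1 at 3.59 (3.31 to 3.76), P2rx4 at 2.11 (1.30 to 2.53), P2rx7 at 1.89 (1.599 to 2.23), P2ry6 at 1.03 (0.692 to 1.44), Nt5e at 0.966 (0.780 to 1.14), P2ry1 at 0.563 (0.331 to 0.727) and Adora3 at 0.231 (0.0669 to 0.307). Among neighbours in this order, Adora2a and Entpd1, P2rx4 and P2rx7, and P2ry6 and Nt5e overlapped in their ranges. In BCAS cortex the order was Adora1 at 20.8, Entpd1 at 13.5, Adora2a at 11.0, P2ry6 at 9.75, P2rx7 at 6.74, P2rx4 at 6.10, Adora3 at 1.56, P2ry1 at 1.40 and Nt5e at 1.26, and all neighbours overlapped. The lead of Adora1 over Entpd1, with ranges of 16.6 to 24.9 and 6.74 to 22.1, was no longer clear of the spread between mice. These ranges compare genes over mice and not within each mouse. Nt5e moved from the seventh place to the last.

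BCAS 2 was the lowest BCAS mouse in all 7 genes that rose and BCAS 1 the highest in 5, whereas P2ry1 and Adora2a were highest in BCAS 4. The same ends, BCAS 1 highest and BCAS 2 lowest, were found in the mean log2 level of the markers of microglia, of monocytes, neutrophils and border macrophages, of astrocytes, of oligodendrocytes, of endothelium and of mural cells and meningeal fibroblasts. P2ry6, P2rx4, P2rx7, Entpd1 and Adora3 were also set against the mean of the 12 microglial markers in each mouse, Csf1r, Cx3cr1 and Fcrls among them. The log2 ratio of Entpd1 to the markers was -0.43, -0.41, -0.13 and -0.33 in Sham 1 to 4 and -1.33, -1.20, -1.07 and -1.24 in BCAS 1 to 4. In every BCAS mouse the ratio of Entpd1 to this mean was below that of every Sham mouse, with a difference of -0.88 (SE 0.09). The same held for P2rx7, with a difference of -0.94 (SE 0.18), and for P2rx4, with -1.29 (SE 0.24). In each of the 3 the groups did not overlap, and the exact permutation p was 0.0286 (adjusted 0.041). When the median of the markers replaced their mean, the differences were -0.50, -0.55 and -0.90, and the adjusted p of the exact tests was 0.057, 0.071 and 0.071. The markers themselves ranged from a log2 fold change of 1.67 for Sall1 to 3.83 for Fcrls, so the 1.91 of Entpd1 and the 1.83 of P2rx7 were above the least of them and the 1.54 of P2rx4 was below.

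P2ry6 had a log2 ratio to the markers of -2.56, -3.66, -2.94 and -3.18 in Sham 1 to 4 and of -2.66, -3.06, -2.38 and -2.73 in BCAS 1 to 4, and the groups overlapped. The difference was 0.38 (SE 0.27, exact permutation p = 0.229, adjusted 0.286), and it was 0.76 when the median of the markers was used (adjusted p of the exact test 0.071). Adora3 had ratios of -4.54, -6.21, -4.28 and -4.38 in Sham 1 to 4 and of -4.84, -5.16, -4.89 and -4.92 in BCAS 1 to 4. Its difference was -0.10 (SE 0.46, exact permutation p = 0.914, also after adjustment), and it rested on Sham 2, with 4 counts: without that mouse it was -0.55 (adjusted 0.048). With the median of the markers the difference of Adora3 was 0.29 (adjusted p of the exact test 0.857). A p that misses the threshold does not show that these genes changed by as much as the markers did.

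**Figure D4:**
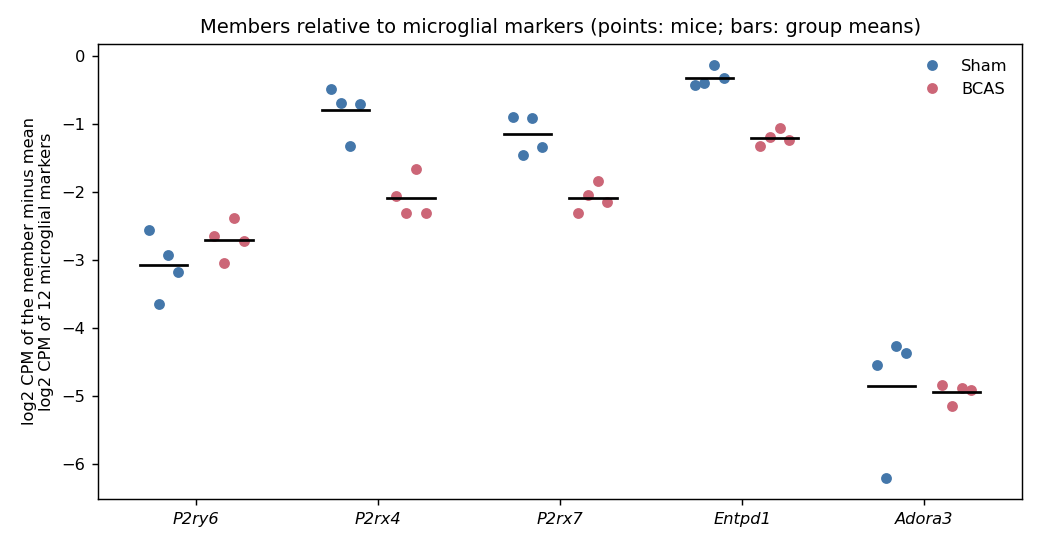
Log2 CPM of 5 genes minus the mean log2 CPM of 12 microglial markers, with 1 point per mouse (4 Sham in blue, 4 BCAS in red) and a bar at each group mean. For P2rx4, P2rx7 and Entpd1 all BCAS mice lie below all Sham mice, by 1.29, 0.94 and 0.88 on average, whereas for P2ry6 and Adora3 the groups overlap.

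Promoter sequences were looked at for all of the 9 genes that had one. RefSeq windows of 300 bases, from 250 before to 50 after a transcription start (GRCm38.p6), were matched for 7 of the 9 genes, with 10 windows in all. P2ry6 and Adora2a are named only. Each window was searched on both strands for the ETS core GAGGAA, the letters bound by myeloid factors such as PU.1, for the AP-1 motif TGANTCA, for the interferon-response motif (GAAA, any 2 bases, GAAA) and for the NF-kappaB motif (GGGA, any base, TTTCC). The ETS core was present in 4 of the 10 windows, against 28.3% of all 32851 RefSeq windows, and the AP-1 motif in 3, against 7.81%. The other motifs were in none of the 10, against 3.44% and 0.411% of all windows. Windows on the plus strand of 4 genes are shown 5′ to 3′, with matches to the ETS core or AP-1 motif on either strand in capitals: P2rx7 (chr5:122643677-122643976), which holds both, Entpd1 (chr19:40659520-40659819), which holds the ETS core at 235 and 227 bases before the start, Adora3 (chr3:105904171-105904470), which holds both, and P2rx4 (chr5:122707294-122707593), the neighbour of P2rx7, which holds neither.
P2rx7: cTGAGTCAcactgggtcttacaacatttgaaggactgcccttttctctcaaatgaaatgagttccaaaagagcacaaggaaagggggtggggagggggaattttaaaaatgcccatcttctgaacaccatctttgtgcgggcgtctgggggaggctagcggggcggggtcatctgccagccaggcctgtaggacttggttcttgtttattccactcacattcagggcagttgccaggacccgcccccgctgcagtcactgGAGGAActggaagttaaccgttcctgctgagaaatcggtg
Entpd1: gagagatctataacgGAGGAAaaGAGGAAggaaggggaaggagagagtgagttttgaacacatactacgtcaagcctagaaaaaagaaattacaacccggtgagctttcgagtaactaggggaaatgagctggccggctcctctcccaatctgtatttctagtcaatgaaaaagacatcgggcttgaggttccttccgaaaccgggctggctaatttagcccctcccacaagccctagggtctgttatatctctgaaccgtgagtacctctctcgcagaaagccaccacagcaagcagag
Adora3: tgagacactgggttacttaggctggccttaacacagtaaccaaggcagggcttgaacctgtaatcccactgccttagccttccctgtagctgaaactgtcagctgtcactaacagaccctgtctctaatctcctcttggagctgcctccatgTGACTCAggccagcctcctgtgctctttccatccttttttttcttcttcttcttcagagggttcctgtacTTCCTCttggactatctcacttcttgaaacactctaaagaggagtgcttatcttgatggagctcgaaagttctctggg
P2rx4: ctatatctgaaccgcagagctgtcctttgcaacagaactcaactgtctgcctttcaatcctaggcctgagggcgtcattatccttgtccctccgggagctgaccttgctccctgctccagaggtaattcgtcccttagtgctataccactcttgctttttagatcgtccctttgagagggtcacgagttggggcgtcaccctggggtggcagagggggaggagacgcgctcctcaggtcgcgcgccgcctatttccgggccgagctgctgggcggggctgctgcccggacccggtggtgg

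These matches describe letters in a window and show no binding. The gene pair next to each other on chromosome 5 differed in them, P2rx7 having the ETS core also in the window of its other start (chr5:122650133-122650432), while both genes rose. The other window of Entpd1 (chr19:40612116-40612415), which spans the start of the gene in the annotation, holds neither motif. Adora1, which fell, holds the AP-1 motif in 1 of its 2 windows, at 104 bases before the start. P2ry1 and Nt5e hold neither.

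The wider purinergic system was described by 42 further genes, of which 34 were tested. Of these, 17 (50%) rose and 1 fell, 12 (35.3%) rose by more than 1 on the log2 scale, and the median log2 fold change was 0.68. Over all tested genes, 19.2% rose, 12.8% fell and 11% rose by more than 1. The count of 17 was 10 without Sham 1, Sham 2 or Sham 4 and 11 without BCAS 4. Entpd8 was at 0 in all libraries, and P2ry4, P2ry10, P2rx2, Bst1, Slc28a2, Slc28a3 and Calhm1 were too low to be tested. Of the genes that rose, P2ry10b, P2rx1, Acpp and Slc17a9 reached the filter's level in 1 to 3 Sham libraries and in all 4 BCAS libraries, so the latter brought them into the test.

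Among other genes with a P2Y symbol 4 of the 5 tested rose. The list goes by symbol, and whether P2ry10b and P2ry10 bind nucleotides was not tested. P2ry12, the ADP receptor that marks microglia and guides their processes, had 676 to 838 counts in Sham and 1882 to 5707 after BCAS (log2 fold change 1.80, SE 0.27, edgeR adjusted p = 0.0030). P2ry13, a related ADP receptor, had 14.5 to 19.5 CPM in Sham and 44.5 to 136.7 CPM after BCAS (log2 fold change 2.26, SE 0.32, adjusted p = 0.0028 in edgeR). For both, all BCAS mice were above all Sham mice. P2ry10b (2.81) and P2ry2, a receptor for ATP and UTP (1.21), rose as well, both with overlapping groups, whereas P2ry14, a receptor for UDP-sugars, had a log2 fold change of 1.08 that did not pass (edgeR adjusted p = 0.0609). P2ry10 had 0, 2, 1 and 0 counts in Sham 1 to 4 and 80, 6, 57 and 9 counts in BCAS 1 to 4, and is given because of these values.

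Of the other P2X receptors only P2rx1 rose (log2 fold change 1.38, edgeR adjusted p = 0.0364) among 4 tested, from 8 to 19 counts in Sham to 22 to 58 in BCAS mice. The remaining adenosine receptor gene, Adora2b, rose from 57 to 64 counts to 83 to 163 counts, a log2 fold change of 0.70 (SE 0.18, edgeR adjusted p = 0.0218). Of the 8 other ectonucleotidases tested 4 rose. Enpp1, which releases AMP from ATP, rose by 1.98 (SE 0.46), Cd38, which consumes NAD, by 2.08 (SE 0.54), and Acpp, an acid phosphatase that can hydrolyse AMP, by 1.51 (SE 0.44) on the log2 scale. For all 3 BCAS 2 lay within the Sham range, at 10.04 CPM for Enpp1 (Sham 5.30 to 11.65), 4.48 CPM for Cd38 (3.95 to 4.62) and 0.670 CPM for Acpp (0.343 to 0.811).

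For adenosine uptake and metabolism 3 of 9 rose, among them the nucleoside transporter of lysosomes Slc29a3 by 1.99 (SE 0.32) and Pnp, the purine nucleoside phosphorylase, by 1.36 (SE 0.31). Slc29a3 had 19.7 to 22.4 CPM in Sham and 40.4 to 138.0 CPM in BCAS mice. Among 7 genes of nucleotide release 4 rose, including the vesicular nucleotide transporter Slc17a9 (2.08, SE 0.44) and Calhm2 (1.08, SE 0.24). The channel gene Panx2 fell from 145.6 ± 21.7 to 95.4 ± 22.8 CPM (SD, n = 4), a log2 fold change of -0.61 (SE 0.18, edgeR adjusted p = 0.0318), and Panx1 was at -0.10 and did not pass (edgeR adjusted p = 0.385). The call of Panx2 was lost without any 1 of BCAS 3, BCAS 4, Sham 1, Sham 2 and Sham 4, when 0 of these genes were lower. Entpd2, Pnp and Calhm2, which rose, are measured less surely, as 28.8%, 21.9% and 9.01% of their exon bases are shared with other genes. Lrrc8a, which did not pass, shares 68.3%.

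For each gene, the tested genes with the most similar profile over the 8 libraries were found by the root-mean-square difference of log2 CPM centred on the Sham mean. Entpd1 was closest to Edem1 (0.0760) and Adam17 (0.0972), and P2rx7 to Tmco4 (0.0838) and Dap (0.0848). P2ry6 was closest to Tgfb1 (0.159) and Tmem221 (0.173), P2rx4 to H2-T10 (0.164) and Litaf (0.167), and Adora3 to Hcst (0.265) and Ly96 (0.348). Adora1 was closest to Nudt3 (0.0264) and Ccdc124 (0.0494), Nt5e to Bcl6 (0.0344) and Zhx2 (0.0953), P2ry1 to Col13a1 (0.173) and Cox6b2 (0.188), and Adora2a to Gm6877 (0.186) and Zfp503 (0.193). No 2 of the 9 genes had a closest gene in common. A small difference is easier to reach for a gene that changes little, so these values rank genes for each member and do not compare members.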

How the data were processed

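RNA-seq was performed on right cortex of 4 Sham and 4 BCAS mice, grouped by the labels. According to the methods and the submitters' processing notes, the authors ran Trim Galore on the paired reads and HISAT2 against mm10, and deposited raw counts per gene. The tables' header names featureCounts 2.0.1 and GENCODE M20, whereas the notes name featureCounts 1.6.3; the recorded call counted read pairs (-p) without strand and without reads that fall on several genes. Symbols were matched for 54723 of 54752 identifiers through GENCODE M21.

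Counts were analysed with edgeR 4.0.16 in R 4.3.3: TMM, filterByExpr (minimum count 10, minimum total 15) and its quasi-likelihood test with group as the only term. The SE of a log2 fold change is its size over the square root of F. Log2 ratios are differences of log2 CPM (prior count 2). The procedure was tested on simulated data. Named genes were the 9 members, up to 12 other purinergic genes past both thresholds by smallest p, P2ry12, P2ry13, P2ry14 and Adora2b, up to 4 abundant markers a list, and the 2 genes most like each member. Others (P2ry10, Panx1, Panx2, Sall1, Ccr2, Drd1, Drd2, Entpd2, Lrrc8a) were chosen after their values were seen. Members, lists and tests were chosen with earlier results of these data known. The labels do not say that mice of one number were paired. Alternatives were other scalings, filters, DESeq2 1.42.0, limma 3.58.1, glmTreat, a replicate block and leaving out each mouse. The level of 3 counts covers counting error only, and p-values reflect the spread between mice.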

Additional observations from a re-analysis of the deposited data

How the results depend on the processing

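P2ry6, P2rx7 and Entpd1 kept their calls under all 17 alternatives, and Adora3 under the 16 that could test it, since a filter of at least 10 counts in every library removed it. No fold change of a member reversed. With the replicate number as a block, Adora1 (-0.54, edgeR adjusted p = 0.058), Adora2a (0.99, 0.088) and P2ry1 (1.27, 0.065) were no longer called, so that 0 members and 0 other purinergic genes were lower. In that fit 5 members and 12 other purinergic genes were higher, and 20.7% of all tested genes were called in either direction. Whether the numbers mark pairs is not known from the labels. The deviations of mice with the same number correlated at -0.045, -0.103, -0.0082 and 0.0013. Differences between single mice weigh on these values, so they cannot exclude that mice of one number shared a day or cage. Testing against a log2 fold change of 1 with glmTreat left 3 members higher, and 4.34% of all tested genes called in either direction. Among other purinergic genes limma-voom left 7 rising by more than 1, and DESeq2 called 2 lower. The log2 ratio of Adora3 to the microglial markers was 0.29 with their median and 0.041 with a prior count of 0.5, in place of -0.10. With the markers' median the ratios of Entpd1, P2rx4 and P2rx7 were -0.50, -0.90 and -0.55 and did not pass. The cause was not tested.

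Leaving out 1 mouse gave log2 fold changes of -0.62 to -0.43 for Adora1, 0.68 to 1.28 for Adora2a, 2.28 to 3.02 for Adora3, 1.58 to 2.15 for Entpd1, 0.29 to 0.51 for Nt5e, 1.15 to 1.81 for P2rx4, 1.55 to 2.06 for P2rx7, 1.11 to 1.55 for P2ry1 and 2.85 to 3.53 for P2ry6. The ratios ranged from 1.26 to 1.78 for Adora2a to Adora1, 2.65 to 3.57 for Adora3 to Adora1, 1.19 to 1.57 for Entpd1 to Nt5e, 0.21 to 0.60 for P2rx7 to P2rx4 and 1.52 to 2.21 for P2ry6 to P2ry1. Relative to the microglial markers they ranged from -0.55 to 0.094 for Adora3, with 0.01, 0.094 and 0.06 without Sham 1, Sham 3 and Sham 4, from -0.93 to -0.82 for Entpd1, -1.46 to -1.18 for P2rx4, -1.04 to -0.85 for P2rx7 and 0.19 to 0.55 for P2ry6. The 7 ratios that passed on all mice missed the threshold without BCAS 1, BCAS 2, BCAS 4 or Sham 1, at adjusted p of 0.057 to 0.082 in the exact test. P2ry6 to P2ry1 also missed it without BCAS 3, Adora3 to Adora1 without Sham 2, and Adora2a to Adora1 without Sham 2, Sham 3 or Sham 4. With few arrangements such a miss depends also on the other ratios and does not by itself show that a ratio rests on 1 mouse. The counts ranged from 4 to 8 members higher, 4 to 7 higher by more than 1 and 0 to 1 lower, and from 10 to 23 other purinergic genes higher, 7 to 17 higher by more than 1 and 0 to 2 lower. Of all tested genes, 2549 were called without Sham 1 and 8166 without BCAS 2, against 5490 with all mice. At the depth of these libraries, 8 of 42 other purinergic genes were too low to test.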
